A study of Saccharomyces cerevisiae with 14 samples.

Results

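Chromosomes II, VII and XI of Saccharomyces cerevisiae were among the chromosomes whose copy number ratio stayed near that of the parental diploid on nearly every array of TAQed strains. They were selected on the measured log2 ratios: on each, the median of the interior stayed within 0.1 of 0. The level of these chromosomes is therefore given below as a description, with no test. Chromosome XVI also stayed within 0.1 of 0 on all TAQed arrays but was not among the chromosomes selected. The members were the 12125 probes of chromosomes II, VII and XI that lay more than 20 kb from both chromosome ends, of 59133 probes on the 16 nuclear chromosomes. Chromosome II held 3837 of them between 20280 and 792239, chromosome VII 5195 between 20288 and 1070575, and chromosome XI 3093 between 20423 and 646063 (positions in build sacCer2, counted from 1). Neighboring probes on the 3 chromosomes started a median of 194 to 198.5 bases apart, so that the interiors of 772 kb, 1050 kb and 626 kb were covered closely enough to look for segments of a few kb.

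The TAQing system breaks chromosomes at many sites with TaqI, a restriction enzyme that is active only in the heat. The 13 TAQed strains, known by numbers from 1 to 119, were single isolates of the fused diploid WT14 in which TaqI was expressed with Cu2+ from a vector and activated for 30 min at 42 °C. They had been picked for small colonies and altered cell shape, so they are not a random sample of treated cells. WT14 came from fusing a haploid of the S288C background (YPH499) with one of the SK1 background (S799), both MATa. YPH499 carried mutations in ura3, lys2, ade2, trp1, his3 and leu2, and S799 carried ura3, lys2, leu2, arg4 and cyh2 mutations with LYS2 inserted at ho. These were the alleles of the parents of WT14, from which all TAQed strains came. Whether each TAQed strain kept the alleles of both parents was not tested. WT14 is labeled as the control, yet its label carries the treatment text of the TAQed strains as well. DNA of each strain was labeled with Cy5 and hybridized against WT14 DNA in Cy3, with 1 array per strain, no dye swap, and 1 array that carried WT14 in both channels.

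A log2 ratio of 0 stands for the same copy number as in WT14, relative to the median of the array. Loss of 1 of 2 copies would give -1 and a gain of 1 copy 0.585. Because WT14 is a hybrid, each of its chromosomes is present as an S288C-type and an SK1-type homologue. Breaks in such a diploid can be repaired by copying from the homologue, which replaces one version of a stretch by the other while the copy number stays the same, or by joining to another chromosome, which can change it. The probe coordinates are those of the S288C reference, and single probes can bind homologues that differ in sequence unequally, so a ratio can differ from 0 at single probes where the copy number is normal.

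The median raw Cy5 signal lay between 157 and 284.5 on 12 TAQed arrays, was 25 on that of strain 81, and was 233 on the WT14 array. The noise between neighboring member probes was 0.113 to 0.134 (SD, log2) on the 12 TAQed arrays, 0.184 for strain 81 and 0.113 for WT14. For the 94 members printed as 5 spots, the median SD of the 5 spots was 0.040 to 0.056 on the 12 TAQed arrays, 0.15 for strain 81 and 0.045 for WT14. Strain 81 was therefore the least precise array, and it was left out where single probes were counted. WT14 and strains 1, 73, 76, 81 and 83 were on 1 slide and the other 8 TAQed strains were on a second slide. The number of arrays limits the precision, as each strain had 1.

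The 3 chromosomes held their level in all 13 TAQed strains. Chromosome II varied least. Its median was lowest in strain 81 at -0.015, had a middle value of -0.00043 and was highest in strain 84 at 0.018, against -0.0041 in WT14. Chromosome VII ranged from -0.015 in strain 81 over a middle value of 0.018 to 0.068 in strain 119, against -0.0055 in WT14. Chromosome XI ranged from -0.0995 in strain 106 over -0.050 to 0.0043 in strain 97, against 0.0016 in WT14. Chromosome II thus spread around the WT14 value. On chromosome VII only strains 76, 81 and 83 lay below the WT14 value, and the other TAQed strains lay above it. For chromosome XI, 12 of the 13 TAQed values lay below the WT14 value. The size of the low level of chromosome XI depended on the background correction, as its middle TAQed value was -0.0073 with normexp, against 0.026 in WT14. Its position below WT14 was kept, with 13 of 13 TAQed values below the WT14 value with normexp. None of the 39 values from the TAQed arrays passed 0.1 in size, against 47 of 169 values for the other 13 chromosomes, of which 12 passed it on at least 1 array. The value just inside the limit was that of chromosome XI in strain 106. Chromosome XVI also stayed within 0.1 in all 13 strains, with a largest size of 0.040 in strain 84, and chromosomes X, XIII and XV passed it in 1 strain each, with 0.17 in strain 117 for chromosome X.

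The order of chromosomes II and VII changed between strains, with chromosome II above VII in 4 of 13. Chromosome VII lay above chromosome XI in 13 of 13 TAQed strains, by 0.0040 to 0.13 with a median of 0.060, against -0.0071 in WT14. With another background correction (normexp) it lay above XI in 10 of 13, by a median of 0.036 with a lowest value of -0.031, against -0.053 in WT14. The 8 TAQed strains of the second slide had medians of 0.0083 to 0.068 on chromosome VII and the 5 on the slide shared with WT14 had -0.015 to 0.0089, so that on the first slide the strains lay close to WT14 on chromosome VII. For chromosome XI the ranges overlapped, with -0.0995 to 0.0043 on the second slide and -0.054 to -0.020 on the first. All of these differences are far below the step of 1 copy. They all rest on the same WT14 DNA in Cy3.

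**Figure D1:**
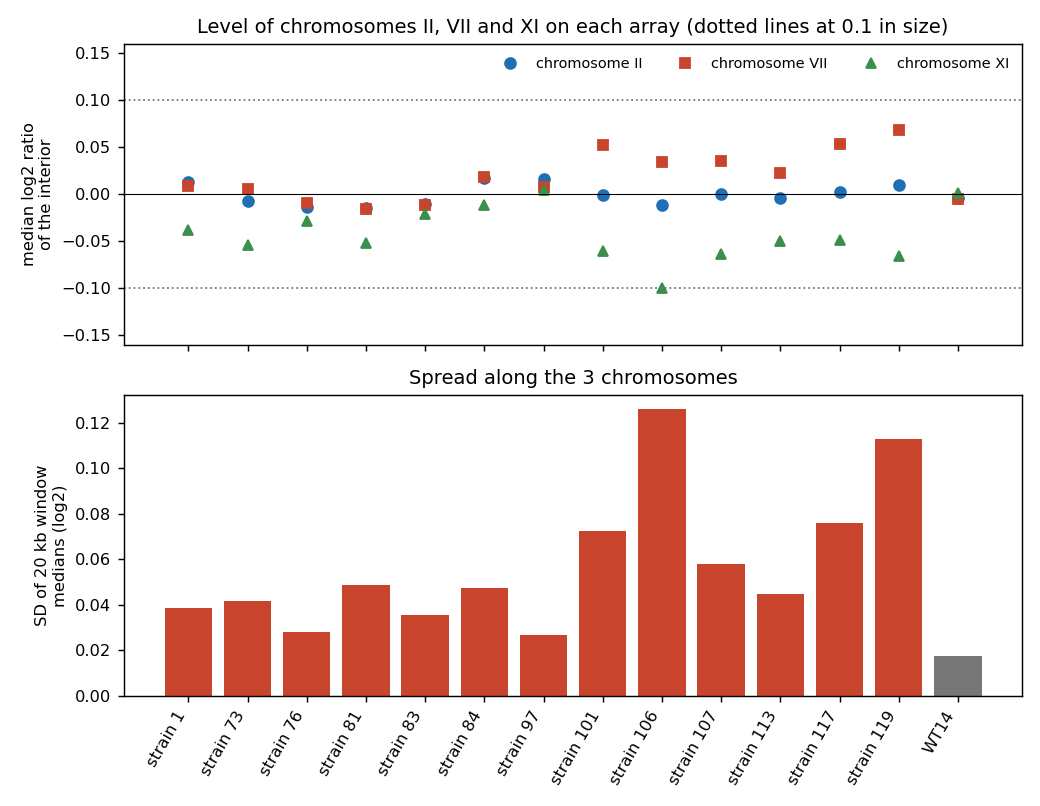
Level of chromosomes II, VII and XI on the 13 TAQed arrays and, at the right, the WT14 array. The upper panel plots the median log2 ratio of each interior (dotted lines at 0.1 in size) and the lower panel the SD of the 20 kb window medians over the 3 chromosomes. No point leaves the dotted lines, and the WT14 bar at 0.017 is the shortest.

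Along the chromosomes the level was less even on the TAQed arrays than on the WT14 array, which carried WT14 DNA in both channels. The interiors were divided into 124 windows of 20 kb, and the SD of the window medians was taken as the spread. It was lowest in strain 97 at 0.027, had a median of 0.047 and was highest in strain 106 at 0.13, against 0.017 in WT14. The mean was 0.058 ± 0.031 (SD, n = 13) in TAQed strains. All 13 TAQed arrays lay above the WT14 array. The difference of 0.041 had p = 0.21 in an exact two-sided permutation test of 13 arrays against 1, in which the smallest p possible is 0.071. Within the slide that held WT14, the 5 TAQed arrays had 0.028 to 0.049 against 0.017 (exact permutation p = 0.17, the smallest that 5 against 1 can give). With 1 WT14 array the design could not reach 0.05. A difference of the strains cannot be told apart here from that of hybridizing DNA against itself. The chromosomes were also selected on these ratios, so the p-values are a description.

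In size the unevenness stayed small. Of 1612 window medians on the TAQed arrays, 5 passed 0.3 in size, all in strain 106, and none did so on the WT14 array, with 7.11% of such values past 0.3 over all 16 chromosomes. A further limit of 0.1 was passed by 170 values (10.5%, against 27.1% over all chromosomes), 97 of them in strains 106 and 119, and by none on the WT14 array. The chromosomes were selected for medians within 0.1 of 0 on the same ratios. That choice favored low shares at both limits, so the shares are a description. The window medians of the TAQed arrays ran from -0.32 to 0.17.

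The unevenness followed the distance from the chromosome end. In strain 106 the median of the 3 chromosomes was -0.28 at 20 to 50 kb from the nearer end, -0.20 at 50 to 100 kb, -0.088 at 100 to 150 kb, -0.019 at 150 to 200 kb, 0.026 at 200 to 300 kb and 0.078 beyond 300 kb. Strain 119 ran in the same order, with -0.21, -0.15, -0.049, 0.0069, 0.044 and 0.11 over the same steps. In WT14 all 6 steps had medians between -0.0054 and 0.0040. Both strains therefore climbed from the ends toward the middle, while WT14 was flat with this processing. With normexp the level within 100 kb of an end minus that over 200 kb away was -0.26 in strain 106, -0.22 in strain 119 and -0.040 at the median of the TAQed strains, against 0.055 in WT14, which was then not flat.

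Taken as the level within 100 kb of an end minus that over 200 kb away, the difference was lowest in strain 106 at -0.29, had a median of -0.085 and was highest in strain 113 at 0.025, against 0.0077 in WT14. It was below the WT14 value in 11 of 13 TAQed strains and below -0.1 in 4, namely strains 106, 119, 117 and 101. In strains 113 and 97 it was above 0, with 0.025 and 0.019. The 8 TAQed strains of the second slide ranged from -0.29 to 0.025 with a median of -0.11, and the 5 of the first slide from -0.087 to -0.012 with a median of -0.045, so that the strains with the steepest slopes were all on the slide without WT14. The slope was not particular to the 3 chromosomes. On the other long chromosomes that stayed within 0.1 of 0 (4 to 10 per array) the same difference had a median of -0.27 in strain 106, -0.25 in strain 119, -0.072 over the TAQed arrays and 0.018 in WT14. The part of the slide or of the DNA preparation in this slope was not tested.

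**Figure D2:**
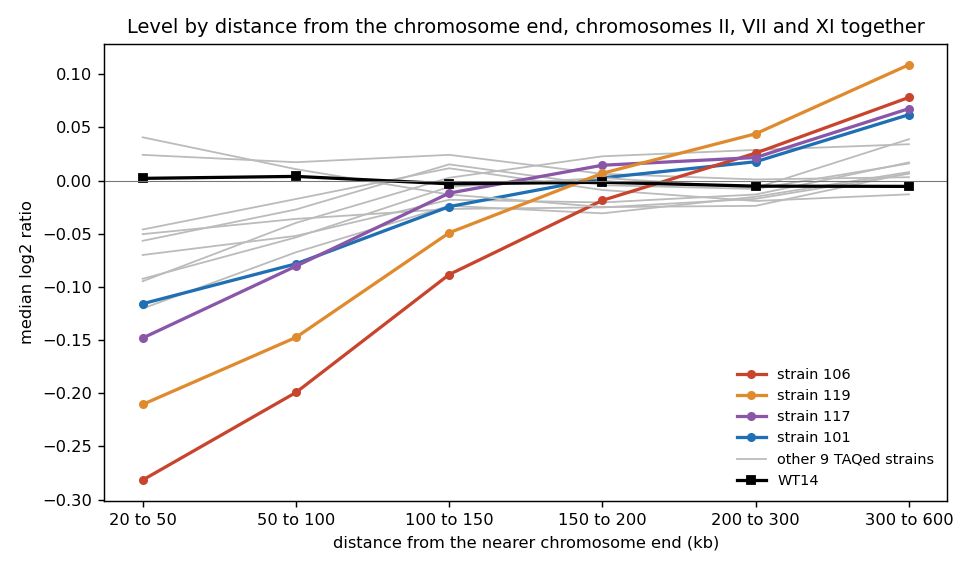
Median log2 ratio of the member probes (vertical axis) by distance from the nearer chromosome end in kb (horizontal axis), chromosomes II, VII and XI together. Each line is 1 array, with strains 106, 119, 117 and 101 in color, the other 9 TAQed strains in gray and WT14 in black. The colored lines start between -0.28 and -0.12 at 20 to 50 kb and end between 0.062 and 0.11 beyond 300 kb.

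When each chromosome was divided into segments of even level, the slope appeared as small steps at repeated places. Each array was partitioned by least squares with at least 10 probes per segment. Between segments of 100 probes or more, 64 steps were found on the TAQed arrays, spread over all 13 strains, and 0 on the WT14 array. Their size was 0.039 to 0.23, and none passed 0.3. Near the left end of chromosome VII, 7 strains stepped up by 0.097 to 0.23 between 74623 and 96951. Near its right end, 6 strains stepped down by 0.11 to 0.20 within 1018968 to 1019757, a range under 1 kb. Chromosome XI had a step down of 0.088 to 0.14 in 6 strains between 584348 and 587659 and a step up of 0.070 to 0.20 in 4 strains between 110362 and 116332. On chromosome II, 4 strains stepped up by 0.089 to 0.13 between 97184 and 100951, and 5 stepped down by 0.098 to 0.18 between 712685 and 731466. Further inside chromosome VII, 4 strains stepped up by 0.067 to 0.11 between 260421 and 266164, and 3 stepped down by 0.049 to 0.057 at 768625. At these 8 places, each found in at least 3 strains in 1 direction, the steps left of the chromosome middle were upward and those right of it downward. Of all 64 steps, 28 of the 32 left of the middle were upward and 30 of the 32 right of it downward. The exceptions include strain 113 on chromosome II, which stepped down by 0.097 at 76907.

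The level within 2 kb windows is given next as a description, since the chromosomes were selected on the same ratios for staying near 0, which favored a low number of calls. A limma fit over 5847 windows of the whole genome (13 TAQed arrays against 1 WT14 array, which was assumed to vary like the others) called 0 of the 1203 windows of the 3 interiors and 0% of all windows after Benjamini-Hochberg adjustment, with a smallest adjusted p of 0.997. At an unadjusted p under 0.05 it gave 3 of the 1203 windows and 71 of all (1.21%). Estimates (TAQed minus WT14) on the interiors ran from -0.18 to 0.11 with a median standard error of 0.055, and none passed 0.3 in size, against 48 of 5575 interior windows on all 16 chromosomes. The design asks for a shift shared by 13 independent isolates, so a change in 1 strain would not be called. The 9 windows with the largest estimates, 3 for each chromosome, were all lower in TAQed strains and all close to an end. On chromosome XI they started at 20001, 24001 and 30001, with estimates of -0.18, -0.18 and -0.16 (SE 0.0995, 0.10 and 0.093). On chromosome II they started at 790001, 774001 and 760001, with -0.16, -0.12 and -0.12, and on chromosome VII at 24001, 30001 and 54001, with -0.14, -0.13 and -0.13. The window at 790001 on chromosome II had values from -0.26 to 0.077 in TAQed strains, which overlapped the value of 0.057 in WT14.

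Segments past 0.3 in size were few. On the 13 TAQed arrays 4 called segments touched the interior, 2 in strain 73, 1 in strain 83 and 1 in strain 101, and on the WT14 array there were 0. They held 39 of 157625 member values (0.025%), against 6.9% of all interior values of the 16 chromosomes on the TAQed arrays. As the chromosomes were chosen for their level, this share is a description. Runs of 3 to 9 neighboring probes past 0.6 in size were also rare. There were 3 on the interiors, holding 0.011% of the member values against 0.925% over all chromosomes, and 0 in WT14. The 3 runs lay within segments already called, at chromosome VII in strains 73 and 101.

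The clearest gain lay at the right edge of the interior of chromosome VII in strain 101. Here 38 probes from 1069099 to 1076151 (7.05 kb) had a mean of 0.93. The 9 of them inside the 20 kb margin, up to 1070575, ranged from 0.76 to 1.07 with a median of 0.98, against -0.089 to 0.072 with a median of -0.0051 in WT14. The segment was called for its mean in strain 101, so these high values were in part fixed by the choice and are a description. Over the 38 probes the other 12 TAQed strains had medians of -0.29 to 0.068, and WT14 had -0.034. The gain was thus seen in strain 101 alone. In the 50 kb to its left the median was -0.082 in strain 101 and -0.011 in WT14, so the gain began abruptly. The probes beyond it belong to the outermost 20 kb and are not members.

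Strain 73 had both of its called segments at places on chromosome VII where probes were sparse and where most arrays, WT14 included, had raised ratios. The called segment at the left place held 10 probes, from 707861 to 713221, with a mean of 0.63 in strain 73 and a single probe as low as 0.017. Over the 10 probes the median was 0.92 in strain 73, 0.52 in strain 106 and -0.091 in strain 83, and 0.17 in WT14. The 6 probes between 707861 and 712174 were those past 0.6 in strain 73, so its high values on them were fixed by their choice and are a description. Their median was -0.34 in strain 83, which was the lowest, 0.29 in the middle and 0.95 in strain 73, which was the highest, against 0.27 in WT14. Strain 106 was second highest with 0.59. The same probes of the other 9 TAQed strains with a bright array had 0.21 to 0.34, and strain 81 had 0.050. Taken as a difference from WT14 probe by probe, the medians were 0.68 in strain 73 (0.54 to 0.83 over the 6 probes), 0.34 in strain 106 (0.24 to 0.43) and -0.61 in strain 83 (-0.67 to -0.44), and between -0.058 and 0.023 in the 9 strains. The same place was therefore high in a pair of strains, low in 1 and at the WT14 value in 9. The flanks within 50 kb were at 0.024 in strain 73, 0.091 in strain 106, -0.022 in strain 83 and -0.014 in WT14.

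These 6 probes were bright in the WT14 reference itself. Their Cy3 signal was 0.99 to 1.29 above that of the flanking probes on the log2 scale, over the 13 arrays other than that of strain 81. At the right place, 10 probes between 812462 and 823335, the Cy3 signal was 1.43 to 1.99 above the flanks. The median ratio there was 0.49 in strain 73, which was the highest of all, 0.32 in the middle and 0.20 in strain 81, against 0.37 in WT14. The difference of strain 73 from WT14 had a median of -0.013 over the 10 probes, with single probes from -0.27 to 0.54. The segment was called in strain 73 although the other 11 bright TAQed arrays had medians from 0.23 to 0.47, so strain 73 differed from WT14 here at some probes only. The 3 leftmost, between 812462 and 814620, were past 0.6 in strain 73 with a median of 0.77. What sequence these bright and sparse probes cover was not analysed here, as no annotation of build sacCer2 was used.

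**Figure D3:**
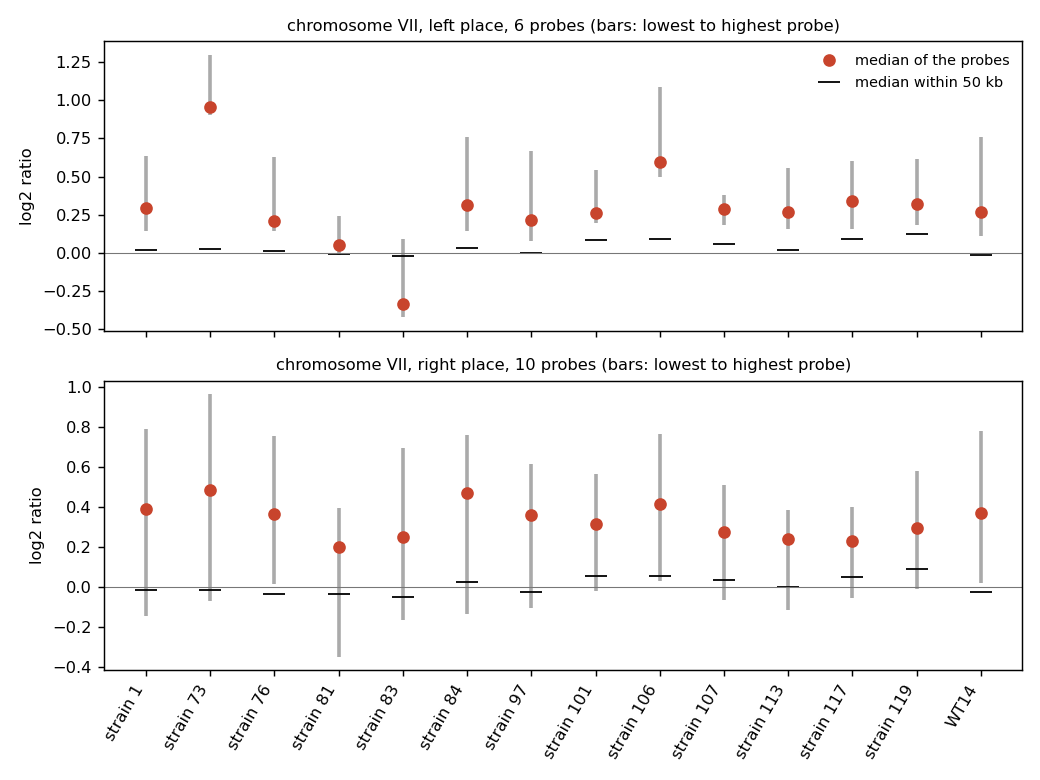
Log2 ratio at the 2 places of chromosome VII where probes were sparse, for the 13 TAQed arrays and, at the right, WT14. Points are the medians of 6 probes (upper panel) or 10 probes (lower panel), gray bars run from the lowest to the highest probe, and black dashes are the median within 50 kb. In the upper panel strains 73 and 106 stand above the WT14 value of 0.27, at 0.95 and 0.59, and strain 83 below it at -0.34.

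The called segment of strain 83 lay on chromosome II between 642651 and 645375 and rested on 1 probe. Its 10 probes had a mean of -0.63 but a median of -0.14, and without the lowest probe the mean was -0.11. WT14 had a mean of -0.00029 over the same probes. The lowest probe, at 643368 to 643426, was not well above background in Cy5 in strain 83, so its ratio is not precise. For an approximate value, its Cy5 signal was set to the lowest one well above background on that array. The ratio was then 20.5-fold lower in strain 83 than in WT14, and the other 12 TAQed strains had log2 ratios of -0.30 to -0.044 there. A second probe of this kind, at 417674 to 417733, was 6.62-fold lower than in WT14 when treated in the same way. Both belonged to a far longer pattern.

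Single probes of strain 83 were low over most of chromosome II at an unchanged level. To find such probes, each ratio was compared with the median of the other 13 arrays at that probe and then with a running median of 101 probes, and a probe that differed by more than 0.4 in size was counted as low or high. The spread of this deviation over the members was 0.048 to 0.067 (robust SD, log2) in 12 TAQed strains and 0.050 in WT14, so that 0.4 is far in the tail. This count was set up after the data had been seen. On chromosome II 131 probes were low and 9 were high in strain 83. The other 11 TAQed strains counted had 0 to 4 low probes, and WT14 had 0. In strain 83 the low probes were 3.42% of the chromosome II members, against 0.465% of the interior probes of all chromosomes in that strain. Over the 12 TAQed strains, 0.137% of the member values were low and 0.0756% high, against 0.285% and 0.181% over all chromosomes.

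All 131 low probes lay between 276485 and 792239, a stretch of 516 kb that held 2607 probes, and none of the 1230 interior probes left of it was low. Counted in steps of 50 kb from the left edge of the stretch, each of the 10 full steps inside it held 6 to 16 low probes, and the steps left of it held 0. Past the 20 kb margin the pattern went on to 810159, with 156 low probes in all. The level itself did not drop: the median of all probes in the stretch was -0.017 in strain 83 and -0.0047 in WT14. The median deviation of the 131 probes was -0.60, which the limit of 0.4 in part fixed. Deviations spread more inside the stretch (robust SD 0.10) than left of it (0.063) in strain 83, while inside it the other 11 TAQed strains had 0.047 to 0.067 and WT14 0.051. Few probes moved the other way at the limit of 0.4, with 8 high probes in the stretch. Past 0.2 in size, 291 probes of the stretch were low and 70 high in strain 83, against 0 low and 18 high in WT14.

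The Cy3 signal, which is WT14 DNA on every array, is given as a description, because it is part of the ratio that chose the probes. On the arrays of the other strains the Cy3 signal of the 131 probes was 0.28 to 0.35 lower on the log2 scale than that of the other probes of the stretch, with 0.30 lower on the WT14 array and 0.20 lower on the array of strain 83 itself. The probes were thus dimmer than their neighbors in the diploid parent on 14 of 14 arrays. The arrays share this DNA and are not independent.

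**Figure D4:**
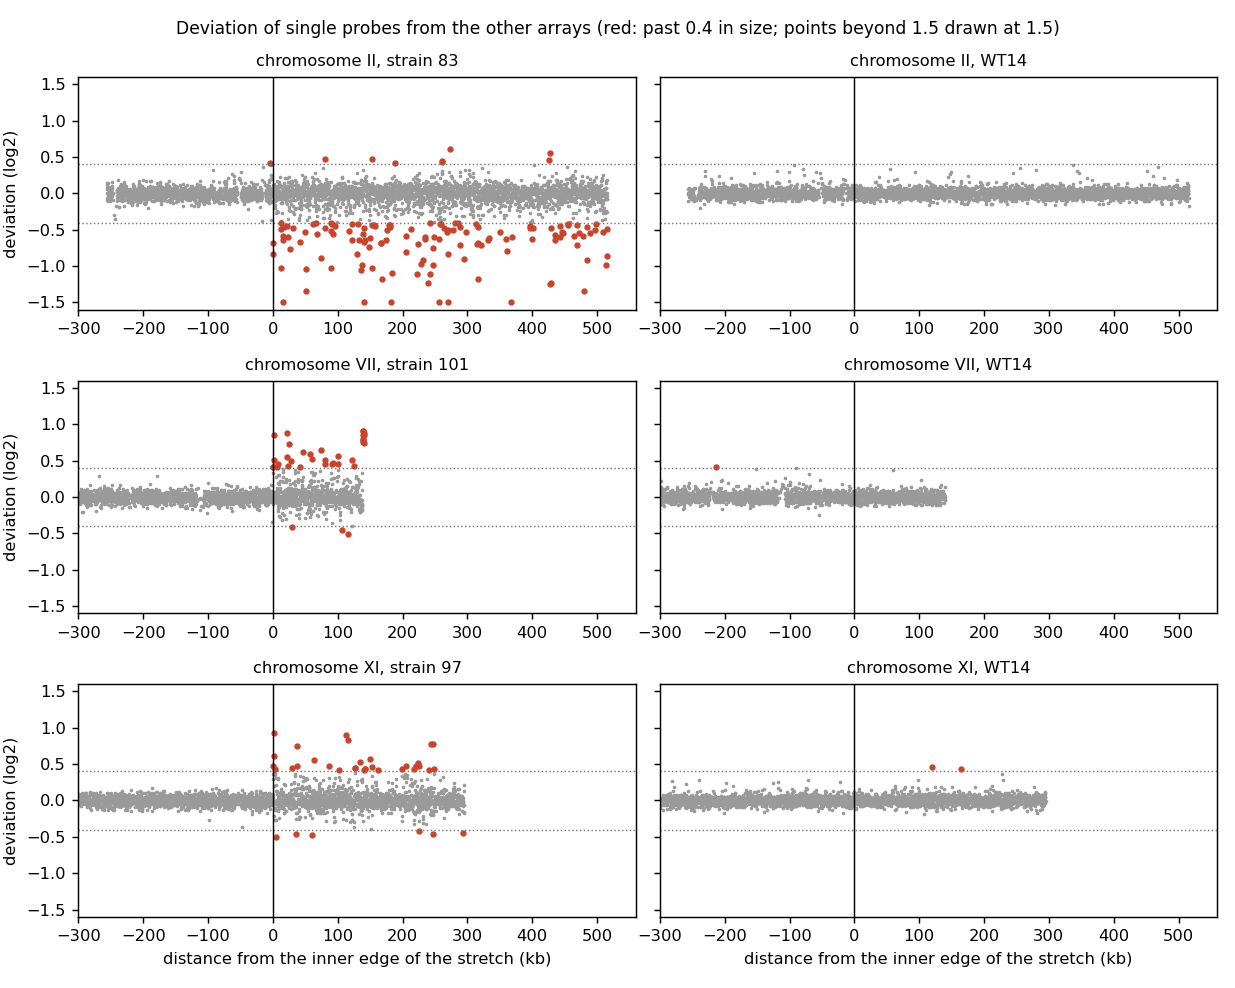
Deviation of single member probes from the other arrays (vertical axis, log2) by distance in kb from the inner edge of the stretch (horizontal axis, edge at 0, chromosome end to the right). Rows are chromosome II in strain 83, chromosome VII in strain 101 and chromosome XI in strain 97, each with the strain at the left and WT14 at the right. Red points pass 0.4 in size. In each strain nearly all of them lie to the right of the edge, and WT14 has none in the first row.

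A shorter stretch of the opposite sign ran along the right arm of chromosome VII in strain 101. Here 33 probes were high between 930434 and 1070575, of 713 probes over 140 kb, and 3 were low. The other 11 TAQed strains counted had 0 to 12 high probes on the whole interior of chromosome VII, and WT14 had 2. In strain 101 the 34 high probes of this interior were 0.655% of its members, against 0.151% of the interior probes of all chromosomes. Of the 33, 9 were the probes of the gain at the right edge described above. The remaining 24 lay among 704 probes whose median level was -0.0053 in strain 101 and 0.0023 in WT14, and their median deviation was 0.50. Only 1 of the 4482 interior probes outside the stretch was high in strain 101, and 1 was low. The robust SD of the deviations was 0.10 inside and 0.059 outside, against 0.052 inside in WT14. The high probes thus ran up to the gain, while the level in strain 101 fell along the stretch. Its median was 0.034 in the first 50 kb of the stretch and 0.0014 in the next 50 kb. In the 50 kb left of the gain it was -0.082, against -0.011 in WT14. On the WT14 array the Cy3 signal of the 33 probes was 0.40 lower than that of the other probes of the stretch, with -0.96 to -0.28 over the 13 other arrays. The value of -0.96 came from the dim array of strain 81.

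Chromosome XI held high probes in strain 97, from 67602 to 116918 (10 probes of 246) and from 153027 to 315465 (21 of 823). The remaining interior had 0 high probes outside both. The other 11 TAQed strains counted had 0 or 1 high probe on the interior of chromosome XI, and WT14 had 2. The median level was 0.013 in strain 97 over the left stretch and 0.018 over the right one, against -0.016 and 0.0045 in WT14. From 67602 to 315465 together, 31 probes were high and 5 low, with a robust SD of 0.088 in strain 97 and 0.047 in WT14, and outside it 0 were high and 1 was low, with 0.055 in strain 97 and 0.049 in WT14. The spread was thus wider from 67602 to 315465 than in the rest of the interior in strain 97, and about even in WT14. High probes were 1.00% of the chromosome XI members in strain 97, against 0.0808% of the interior probes of all chromosomes in that strain. Cy3 signal on the WT14 array was 0.12 lower for the high probes of the left stretch and 0.47 lower for those of the right one than for their neighbors.

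Near the middle of chromosome XI, 2 short stretches overlapped. In strain 101, 9 probes between 355365 and 379295 were low, with a median deviation of -0.52 and a median level of -0.074, against 0.019 in WT14. In strain 1, 5 probes between 352884 and 356059 were low, with a median deviation of -0.46 and a median level of -0.13 over 17 probes, against -0.058 in WT14. They shared 3 probes, which are 60% of those in strain 1 and 33.3% of those in strain 101. At the 3 shared probes the deviations were -0.46, -0.46 and -0.47 in strain 1 and -0.52, -0.45 and -0.46 in strain 101. These 3 were chosen for passing the limit in both strains. The Cy3 signals went opposite ways, as the 5 probes of strain 1 were 1.24 brighter than their neighbors on the WT14 array and the 9 of strain 101 were 0.17 dimmer. Over the other arrays the 9 probes had -0.28 to 0.22. The value of 0.22 came from the dim array of strain 81, and those of all other arrays were negative.

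In all, 8 stretches of at least 5 deviating probes were found on the 3 interiors on the 12 TAQed arrays counted, of 117 on all 16 chromosomes, and 0 on WT14, which had 3 on all chromosomes. The last 2 are the left sparse place of chromosome VII, high in strain 73 (6 probes) and low in strain 83 (5 probes). The remaining 7 TAQed strains counted (strains 76, 84, 106, 107, 113, 117 and 119) had none. Just under the limit of 5 were 4 low probes in strain 113 between 402283 and 404453 on chromosome VII, and 3 chains of 3 probes, 1 each in strains 73, 83 and 97. On chromosomes that had lost a copy, similar probes were counted for scale: chromosome V held 169 low and 33 high probes of 2657 in strain 113 (median level -1.15) but 12 low and 109 high of 2658 in strain 117 (-1.11), and chromosome VIII 212 low and 29 high of 2628 in strain 119 (-1.05).

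**Figure D5:**
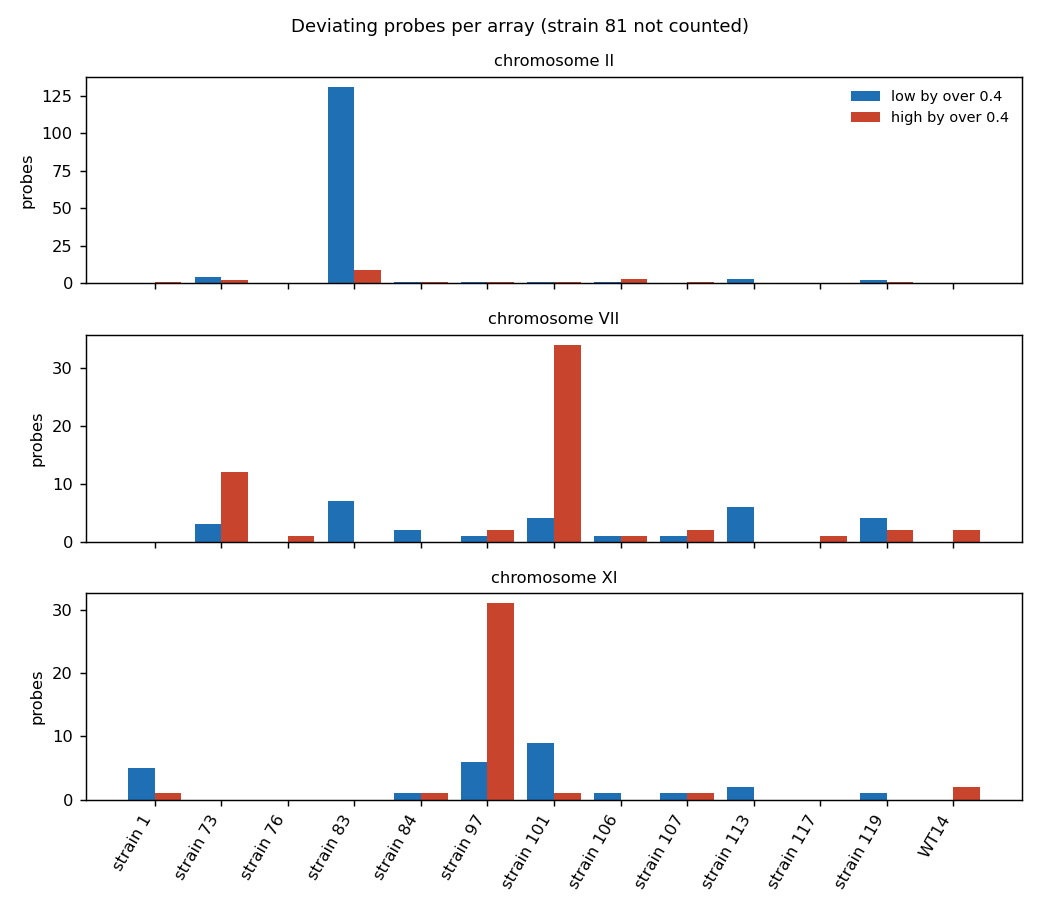
Number of member probes that were low (blue) or high (red) by more than 0.4 relative to the other arrays, for chromosomes II, VII and XI, on 12 TAQed arrays and, at the right, WT14. Strain 81 was not counted. Strain 83 stands out on chromosome II with 131 low probes, strain 101 on chromosome VII with 34 high probes and strain 97 on chromosome XI with 31.

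The noise between neighboring probes was about the same on the 3 chromosomes as on the rest of the genome. It averaged 0.125 ± 0.018 on the members and 0.127 ± 0.019 on the interiors of the other 13 chromosomes (SD, n = 13 TAQed arrays), against 0.113 and 0.113 in WT14. The difference was -0.0015 ± 0.0031 and lay below 0 in 11 of 13 strains (exact two-sided sign-flip permutation p = 0.12). Strain 83 had the largest difference, 0.0073, and chromosome II was its noisiest member with 0.154, against 0.115 in WT14. Without strain 83 the mean difference was -0.0022 with an exact permutation p of 0.0015, and with the SD around a running median it was -0.0033 with p = 0.0066, so that the call depended on this strain and on the measure. The other 13 chromosomes include those with a changed copy number, while the members were selected for an unchanged level. The selection could thus favor a difference, and these p-values are a description.

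Together the 3 chromosomes carry 1275 of the 6002 protein-coding genes in the RefSeq annotation of the yeast genome (assembly R64). They include RAD54 and RAD6 on chromosome VII and RAD27 on chromosome XI, which act in recombination, in repair during replication and in processing DNA flaps, the checkpoint kinase gene TEL1 and the galactose genes GAL1, GAL10 and GAL7 on chromosome II, and CUP2, an activator of the copper response, on chromosome VII. The array gives positions in another build, so no gene was assigned to a segment or a probe.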

How the data were processed

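Copy number was measured by aCGH with Agilent oligonucleotide tiling arrays. Per the file headers, the authors scanned the arrays and extracted the spots with Feature Extraction 11.0.1.1, which gave intensity values that were background-subtracted and linearly dye-normalized, with probe positions in build sacCer2. Raw median intensity values of spot and local background are deposited beside them. The authors' value table, deposited as log10 ratios for 47691 spots, differed from the scanner files by at most 5e-08 and was used as an alternative. The scanner files also hold the extraction software's own log ratio and error columns, which were not used otherwise.

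From these intensities, log2 of processed Cy5 over processed Cy3 was taken per spot, control spots and outlier flags were left out, replicate spots were averaged, and the median over nuclear probes was subtracted from every array, with no loess or quantile step. The ratio compresses at dim probes, and array-wide centering makes each level relative to the rest of that genome. Probes that span over 100 bases (23) were left out. Members lay over 20 kb from the first and last probe of a chromosome. Segments came from least-squares optimal partitioning (penalty 10 times the noise variance times the natural logarithm of the probe number, at least 10 probes) and were called past 0.3 in size. Windows of 2 kb with at least 3 probes were tested with limma 3.58.1 in R 4.3.3 (lmFit, eBayes, Benjamini-Hochberg over all windows). Single values were tested by exact permutation or sign flips. Deviating probes (past 0.4 in size, gaps up to 30 kb, at least 5 probes) were counted without strain 81. The other tools were Python 3.11.15, numpy 2.4.6, scipy 1.17.1 and pandas 2.3.3. The segmentation, the stretches of deviating probes and the limma fit were tested on simulated data, and the exact tests on fixed values. The other measures were not tested in this way.

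The chromosomes, the segments to look for, the gene lists and the tests were chosen with earlier results of these data known. Segments named are all those called on the interiors in TAQed strains and not in WT14, and windows named are the 3 with the largest estimates per chromosome. The stretches of deviating probes and the slope toward the ends were added after the values were seen. Gene lists (parental markers, galactose, copper response, repair, Ty elements and centromeres) could not be placed on the array, since the annotation used, R64, differs from sacCer2, and no probe sequence was used. Alternatives were other background corrections, loess, other centering, the value table, other margins, thresholds and window sizes, the slide as a block, and leaving out single strains.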

Additional observations from a re-analysis of the deposited data

How the results depend on the processing

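Among the 39 levels the largest in size was -0.0995 (chromosome XI, strain 106). With normexp that level was -0.070 and the largest was 0.079, on chromosome VII in strain 117. Over the other 8 alternatives the largest lay between -0.11 and -0.079, of which centering on the mode and using no margin each put 1 level past 0.1.

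The count of 4 called segments depended on the settings. It was 20 with a penalty of 5 (1 on WT14), 1 with a penalty of 20, 7 with at least 5 probes, 2 with at least 20 probes, 12 at a threshold of 0.2, 1 with normexp, 2 with the value table, 12 after subtracting the WT14 array and 42 with no margin (4 on WT14). The gain of strain 101 was among those called in each of the 13 alternatives that kept the margin, and was the only one with a penalty of 20 and with normexp. Runs of 3 to 9 probes numbered 3, and 47 at a threshold of 0.4 (3 on WT14).

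No 2 kb window of the 3 chromosomes was called by limma in any of 18 alternatives, the slide as a block included. The 13 fits that left out 1 TAQed strain each called 0, and that without strain 83 called 1 window elsewhere in the genome. For the noise difference of -0.0015, leaving out 1 strain each gave -0.0022 to -0.0011. Without strain 83 it was -0.0022 and passed the threshold, and with the SD around a running median it was -0.0033 and passed it. The 4 alternatives of the spread of 20 kb windows kept the direction, with exact permutation p of 0.17 to 0.23.

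Stretches of deviating probes, with alternatives added after seeing the data, numbered 8, and 13 at a deviation of 0.3, 5 at 0.5, 13 with gaps up to 15 kb and 4 with at least 10 probes. Low probes of strain 83 on chromosome II numbered 67 with normexp. High probes of strain 101 on chromosome VII numbered 22 at 0.5. High probes of strain 97 on chromosome XI numbered 57 at 0.3 and 11 at 0.5. In each of these the next array had fewer. The cause of these moves was not tested, beyond what a looser or stricter limit does by construction. The level near the ends relative to the middle had a TAQed median of -0.086 to -0.040 over its alternatives, the last with normexp, where WT14 had 0.055 and 13 of 13 TAQed strains lay below it. The TAQed median of chromosome XI was -0.0073 with normexp, where WT14 had 0.026 and 13 of 13 TAQed strains lay below it.

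No paired analysis was possible because WT14 has 1 array and the replicate numbers are strain numbers. Each strain had 1 array, so differences between strains and between hybridizations cannot be told apart. Signals were dim in strain 81, where 84.5% of members were well above background in Cy5.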
